A study of Mus musculus with 6 samples.

Results

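The glucocorticoid receptor and 7 genes that it is known to induce were read from bulk RNA libraries of intestinal fibroblasts. The 8 genes, Nr3c1, Cebpd, Cebpb, Tsc22d3, Fkbp5, Sgk1, Zbtb16 and Klf9, were taken by name from the gene table. All 8 were found among its 15238 genes. The rule that picks them uses no measured value, but the members were chosen with earlier results of these data known. Each library was made from podoplanin-positive cells that were sorted from the gut of 9-day-old Balb/c pups and lacked CD45, EpCAM and CD31 on their surface. Before the sort the epithelium was stripped with EDTA and the rest of the tissue was digested with Liberase. There were 3 wild-type libraries (replicates 1, 3 and 4) and 3 DdblGata1 libraries (replicates 4, 9 and 10). DdblGata1 animals are labelled eosinophil-deficient. They carry, in all their cells, a deletion in the promoter of Gata1, which encodes a transcription factor of blood cells. Gata1 itself had at most 1 estimated count in any library, so its level does not check the genotype labels here. Neither group is labelled as treated with glucocorticoid. The labels do not say whether each library came from a separate pup, so all p-values measure the spread between these libraries only.

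Glucocorticoid hormones enter the cell and bind the receptor encoded by Nr3c1, which is held in the cytoplasm by heat shock chaperones. The bound receptor moves to the nucleus and binds response elements in DNA, from which it activates some genes, and it restrains inflammatory genes driven by other factors. Fkbp5 and Tsc22d3 are classic induced genes: the first encodes a chaperone partner that lowers the receptor's affinity for hormone, the second the anti-inflammatory protein GILZ. Cebpd and Cebpb encode C/EBP transcription factors, which inflammatory cytokines also induce. In mesenchyme the same C/EBP factors start fat cell formation.

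A full match to the response element was found in a promoter of 1 member, Sgk1, which encodes a serum- and glucocorticoid-regulated kinase. That promoter is shown here with those of Klf9 and Cebpb, members with a single annotated transcript each. Promoters of 5 of the 8 members, matched by symbol, were taken from a RefSeq promoter table on GRCm38.p6, with 12 promoters in all. Each runs from 250 bases before a start site to 50 bases after it. Sgk1 and Tsc22d3 have several of these promoters each, so the 12 do not stand for 12 separate genes. Any promoter of the receptor gene was left out of these 12, and none of Cebpd or Zbtb16 is among them. Capitals mark the match to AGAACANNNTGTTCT in Sgk1 and, in Klf9 and Cebpb, each match on either strand to TGACG, the core bound by cyclic AMP response factors. All 3 are plus-strand promoters.
Sgk1, chr10:21993640-21993939: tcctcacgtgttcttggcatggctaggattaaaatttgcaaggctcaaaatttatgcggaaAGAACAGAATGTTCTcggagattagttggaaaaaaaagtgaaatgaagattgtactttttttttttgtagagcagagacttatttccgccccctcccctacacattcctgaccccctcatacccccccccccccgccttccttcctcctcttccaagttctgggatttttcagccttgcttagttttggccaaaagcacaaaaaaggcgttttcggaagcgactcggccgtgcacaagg
Klf9, chr19:23140976-23141275: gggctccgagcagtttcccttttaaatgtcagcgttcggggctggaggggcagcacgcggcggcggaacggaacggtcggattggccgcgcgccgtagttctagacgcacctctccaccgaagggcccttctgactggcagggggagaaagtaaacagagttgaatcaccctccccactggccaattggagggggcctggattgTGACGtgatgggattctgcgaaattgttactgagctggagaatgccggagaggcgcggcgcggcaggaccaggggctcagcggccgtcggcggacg
Cebpb, chr2:167688665-167688964: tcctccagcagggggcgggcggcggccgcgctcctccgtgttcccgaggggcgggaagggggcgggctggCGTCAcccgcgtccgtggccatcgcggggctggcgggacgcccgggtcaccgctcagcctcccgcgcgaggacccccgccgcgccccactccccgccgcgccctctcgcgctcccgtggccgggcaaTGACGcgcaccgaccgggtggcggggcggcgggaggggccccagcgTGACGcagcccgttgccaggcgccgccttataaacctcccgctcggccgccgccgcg
The site in Sgk1 reads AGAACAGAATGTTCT and matches the full palindrome on both strands, at 21993701 to 21993715 on chromosome 10. It ends 175 bases before the start of the transcript Sgk1-202 and 951 bases before the start of Sgk1-201. Only 3 of 32851 mouse promoters in the table (0.00913%) hold the full palindrome, and the other 2 genes, Acnat2 and Gm35041, were not in the gene table. A single arm of it, AGAACA on either strand, was in 4 of the 12 member promoters, 3 of Sgk1 and 1 of Tsc22d3, and in 19.0% of all promoters. Each full palindrome also counts as an arm. TGACG was found 3 times in the Cebpb promoter and once in that of Klf9, and also once each in a promoter of Sgk1 and of Tsc22d3. Thus 4 of the 12 member promoters hold it, and 20.8% of all promoters do. A match is a description of letters in this window and not a measured binding site.

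The libraries held 28110454 to 31210800 estimated counts over the gene table, so that 3 counts, the limit allowed by a count of 0, correspond to at most 0.107 CPM, the count scaled to a common library total. All 8 fibroblast markers were measured, among them Pdpn, Pdgfra and Col1a1, and 7 of them were not called by DESeq2. Of all genes, DESeq2 called only 0.971% higher and 0.492% lower. Of 5 eosinophil markers only Ccr3 was in the gene table, and Epx had 0 estimated counts in every library. Ccr3 had 0.701, 1.10 and 0.360 CPM in wild-type replicates 1, 3 and 4, and 0.257, 0.165 and 0.258 CPM in DdblGata1 replicates 4, 9 and 10. It was lower without overlap, as 7.34% of all genes were, at levels not far above the limit of 0.107 CPM. Prg2 had 7, 3 and 2 estimated counts in wild-type libraries and 0, 26 and 11 in DdblGata1 libraries, and Il5ra had 1.12 to 7.41 and 1.0 to 13.6. Both were highest in DdblGata1 replicates 9 and 10, and Siglecf had 16 or fewer in all libraries. Wild-type replicate 1 stood apart: its 8 epithelial markers summed to 819 CPM, against 132 to 243 CPM in the other 5 libraries. In a principal component analysis of 500 variable genes, component 1 had this library at one end (-33.9) and DdblGata1 replicate 10 at the other (29.9). Each member is given below with and without these libraries.

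Nr3c1, the receptor itself, was the most abundant member per transcript length in the mean over libraries. Its level was 52.2, 63.4 and 78.4 TPM (transcript abundance per length, scaled to a common library total) in wild-type replicates 1, 3 and 4, and 82.5, 87.2 and 98.6 TPM in DdblGata1 replicates 4, 9 and 10. On the CPM scale, scaled between libraries, wild-type libraries had 157, 197 and 225 CPM, and DdblGata1 libraries had 229, 244 and 287 CPM. The groups did not overlap, but the highest wild-type and the lowest DdblGata1 library differed by little. The means were 193 ± 34.1 CPM in wild-type and 253 ± 30.4 CPM in DdblGata1 libraries (SD, n = 3). Fitted as DdblGata1 minus wild-type, the log2 fold change was 0.39 ± 0.18 (SE), which did not pass the test (edgeR adjusted p 0.491). Without wild-type replicate 1 the log2 fold change was 0.24, and without that library and DdblGata1 replicate 10 it was 0.14.

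After Nr3c1 the order of mean levels per length was Tsc22d3 (62.6 TPM), Sgk1 (56.4), Klf9 (35.7), Cebpd (17.9), Fkbp5 (17.6), Cebpb (16.4) and Zbtb16 (3.87). Neighbours in this order overlapped in their ranges over the 6 libraries, for example Tsc22d3 (55.7 to 70.8 TPM) and Sgk1 (32.1 to 92.9 TPM), up to Cebpb. Only Zbtb16, with at most 9.89 TPM, lay wholly below its neighbour Cebpb, which had at least 12.7 TPM. Part of the TPM of Sgk1 was assigned to a transcript of only 418 bases, and its 3 full-length transcripts together had 17.8 to 43.7 TPM.

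**Figure D1:**
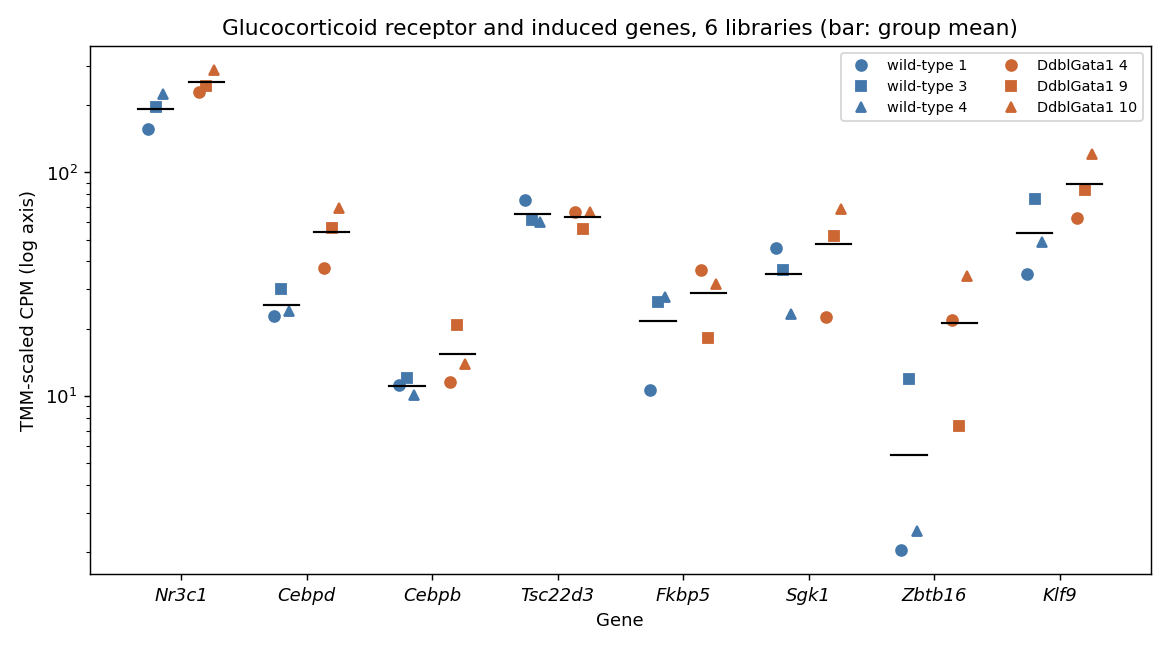
TMM-scaled CPM of each member in each library, on a log axis; blue points are wild-type and orange points DdblGata1 libraries, point shapes tell replicates apart and black bars are group means. The 3 DdblGata1 values of Cebpd (37.2 to 69.0 CPM) and of Nr3c1 (229 to 287 CPM) lie above all wild-type values, whereas the other 6 members overlap.

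Cebpd, which encodes C/EBP delta and is switched on early by glucocorticoid and by cytokines, had the smallest p-value of the members. It had 22.8, 30.1 and 23.9 CPM in wild-type replicates 1, 3 and 4, and 37.2, 56.6 and 69.0 CPM in DdblGata1 replicates 4, 9 and 10. Every DdblGata1 value lay above every wild-type value, with DdblGata1 replicate 4 nearest to them. Its log2 fold change was 1.08 ± 0.24 (SE), a fitted ratio of 2.12, with an unadjusted p of 0.00194 and an adjusted p of 0.384 by edgeR. DESeq2 called it higher, with an adjusted p of 0.0119. With any single library left out the log2 fold change stayed between 0.86 and 1.29, and without wild-type replicate 1 and DdblGata1 replicate 10 it was 0.78 (edgeR unadjusted p 0.0193). Cebpd lies on GRCm38 chromosome 16 from 15887286 to 15891031.

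Cebpb, the relative that encodes C/EBP beta, stood above the wild-type range in 2 of the 3 DdblGata1 libraries. Its values were 11.2, 12.1 and 10.1 CPM in wild-type and 11.6, 20.8 and 13.9 CPM in DdblGata1 libraries. DdblGata1 replicate 9 was high, and DdblGata1 replicate 4 lay within the wild-type range. The log2 fold change of 0.47 ± 0.25 (SE; edgeR adjusted p 0.529) became 0.17 without DdblGata1 replicate 9, and 0.52 when wild-type replicate 1 and DdblGata1 replicate 10 were left out. Among other C/EBP genes, the log2 fold change was -0.07 ± 0.28 for Cebpa, -0.04 ± 0.22 for Cebpg and 0.45 ± 0.31 for Ddit3 (SE), and Cebpe was not in the gene table, with 8 or fewer estimated counts in each library.

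Zbtb16, which encodes the zinc finger repressor PLZF, had the widest range of the members. It had 2.04, 11.9 and 2.49 CPM in wild-type replicates 1, 3 and 4, and 21.9, 7.31 and 34.3 CPM in DdblGata1 replicates 4, 9 and 10. The highest library exceeded the lowest 16.8-fold. The groups overlapped because wild-type replicate 3 lay above DdblGata1 replicate 9. The log2 fold change was 1.95 ± 0.76 (SE), with an unadjusted p of 0.0333 and an adjusted p of 0.472 by edgeR (DESeq2 adjusted p 0.394). It was 3.22 when wild-type replicate 3 was left out and 1.40 when DdblGata1 replicate 10 was. Leaving out wild-type replicate 1 together with DdblGata1 replicate 10 gave 0.999, with an edgeR unadjusted p of 0.254.

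Klf9, a Krüppel-like factor that binds GC-rich DNA and is induced by glucocorticoid and thyroid hormone, had 35.0, 76.0 and 49.1 CPM in wild-type libraries. In DdblGata1 replicates 4, 9 and 10 it had 62.6, 83.4 and 121 CPM. Wild-type replicate 3 again lay above DdblGata1 replicate 4, so the groups overlapped. Its log2 fold change was 0.74 ± 0.32 (SE; edgeR adjusted p 0.486), and 0.20 without wild-type replicate 1 and DdblGata1 replicate 10. Klf9 lies on GRCm38 chromosome 19 from 23141226 to 23168134.

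Fkbp5 and Tsc22d3, the classic induced genes, did not separate the genotypes. Fkbp5 had 10.7, 26.4 and 27.8 CPM in wild-type and 36.7, 18.2 and 31.8 CPM in DdblGata1 libraries. Wild-type replicate 1 was the lowest of the 6. The log2 fold change of 0.42 ± 0.39 (SE; edgeR adjusted p 0.697) was 0.07 without that library and 0.0023 without it and DdblGata1 replicate 10.

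Tsc22d3 was the steadiest member, with 75.0, 61.0 and 60.3 CPM in wild-type and 66.2, 56.0 and 66.5 CPM in DdblGata1 libraries. Its highest and lowest libraries differed 1.34-fold. Its log2 fold change was -0.06 ± 0.15 (SE; edgeR adjusted p 0.903), and -0.0091 without wild-type replicate 1 and DdblGata1 replicate 10. Its sign turned without wild-type replicate 1 (0.03), without DdblGata1 replicate 9 (0.0031), with TPM (0.03) and with the deposited surrogate variables (0.02).

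Sgk1 had 46.1, 36.6 and 23.3 CPM in wild-type replicates 1, 3 and 4, and 22.6, 52.0 and 68.5 CPM in DdblGata1 replicates 4, 9 and 10. The lowest library, DdblGata1 replicate 4, and the highest, DdblGata1 replicate 10, were of the same genotype. The log2 fold change of 0.43 ± 0.40 (SE; edgeR adjusted p 0.694) was 0.77 without DdblGata1 replicate 4 and 0.06 without DdblGata1 replicate 10. Leaving out wild-type replicate 1 as well as the latter gave 0.30.

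By counts, 7 of the 8 members had a higher value in DdblGata1 libraries, where 49.3% of all genes did, with a median difference of 0.45 on the log2 scale, against -0.01 over all genes. The quasi-likelihood test of edgeR called 0 members at an adjusted p of 0.05, and 0.0% of all genes. At an unadjusted p under 0.05 it found 2 members higher, Cebpd and Zbtb16, and 0 lower, where 6.03% of all genes were higher and 4.23% lower. DESeq2 called 1 member, Cebpd, higher and 0 lower, where it called 0.971% of all genes higher and 0.492% lower. Members whose groups did not overlap were Cebpd and Nr3c1, both higher, where 8.98% of all genes were higher and 7.34% lower without overlap. These 8 genes share libraries and are few, so the counts describe them and were not tested as a set.

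The count at an unadjusted p under 0.05 depended on single libraries. It was 1, Cebpd, without wild-type replicate 1, where 4.34% of all genes were higher, and also 1 without DdblGata1 replicate 10, where 2.90% were. Without both it was 1 as well, again Cebpd (3.15% of all genes). Without DdblGata1 replicate 4 it was 5, Nr3c1, Cebpd, Cebpb, Sgk1 and Klf9, and the share over all genes was 9.61%. Cebpd was the member that remained at that threshold in each of these fits.

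**Figure D2:**
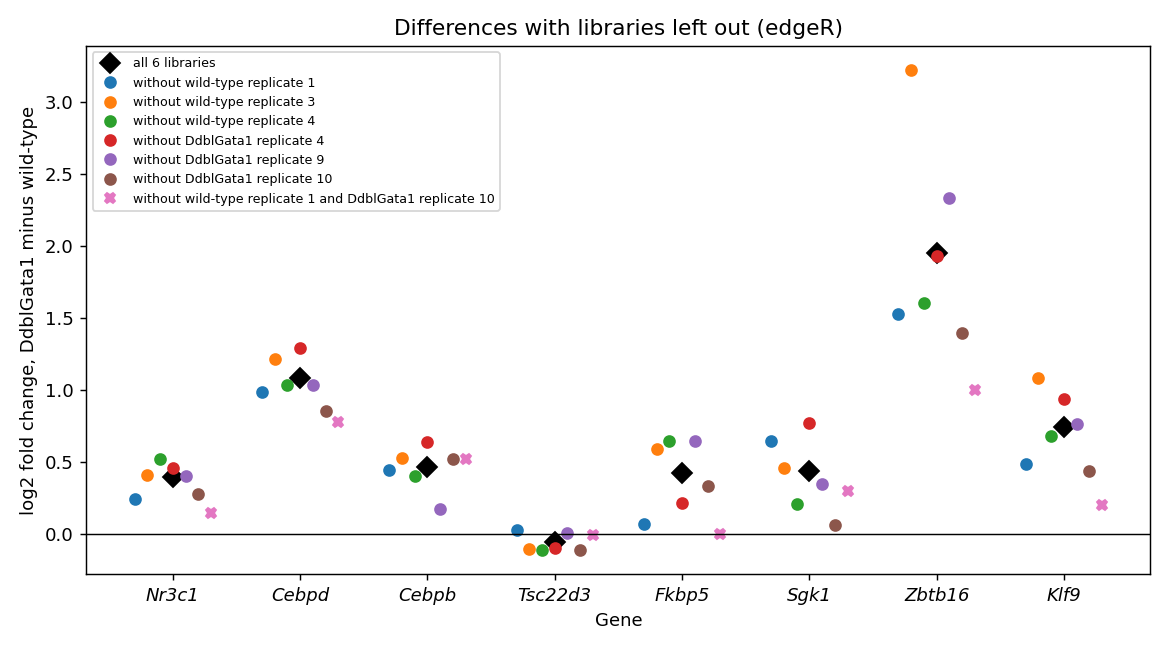
Fitted log2 fold change of each member, DdblGata1 minus wild-type, with all 6 libraries (black diamonds), with each library left out in turn (circles) and without wild-type replicate 1 and DdblGata1 replicate 10 (crosses). Cebpd stays between 0.78 and 1.29 in all of them, Zbtb16 runs from 0.999 to 3.22, and Tsc22d3 from -0.11 to 0.03.

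The members shared some extremes across the 6 libraries but not one profile. Nr3c1, Cebpd, Zbtb16 and Klf9 were lowest in wild-type replicate 1 and highest in DdblGata1 replicate 10. Fkbp5 was also lowest in the former and Sgk1 also highest in the latter, whereas Cebpb and Tsc22d3 shared neither. The centred profile of a gene is its log2 CPM in each library minus its mean over the 6 libraries. Cebpd and Klf9 were the most alike of the 28 pairs of members, with a root mean square difference of 0.26 between their profiles. Their values were -0.68 and -0.91 in wild-type replicate 1, and 0.91 and 0.88 in DdblGata1 replicate 10.

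Fkbp5 and Sgk1, both textbook targets of the receptor, parted most in 2 libraries. DdblGata1 replicate 4 was the highest library for Fkbp5 (0.64) and the lowest for Sgk1 (-0.76), and wild-type replicate 1 was the lowest for Fkbp5 (-1.13) and among the higher for Sgk1 (0.27). They also had opposite signs in wild-type replicate 4 (0.24 for Fkbp5 and -0.72 for Sgk1) and in DdblGata1 replicate 9 (-0.36 and 0.44). In wild-type replicate 3 the gap was smaller (0.17 and -0.07). DdblGata1 replicate 10 was high for both (0.44 and 0.84). Their profiles differed by 0.98, more than those of any other pair without Zbtb16. Tsc22d3 and Zbtb16 were the most unlike pair (1.51), since Tsc22d3 hardly varied and Zbtb16 varied most.

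**Figure D3:**
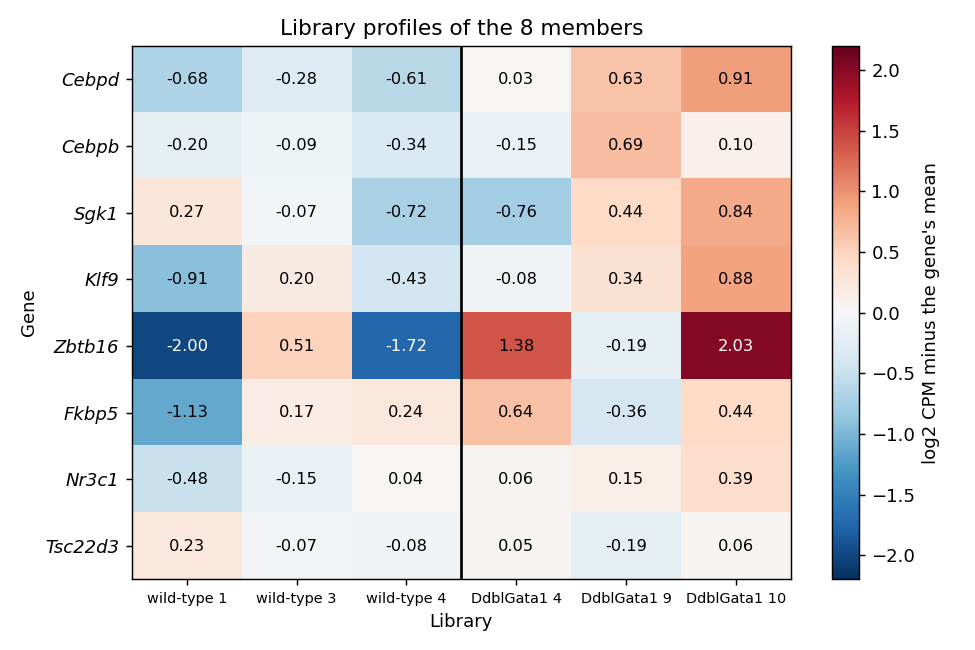
Log2 CPM of each member minus its own mean over the 6 libraries, printed in each cell and coloured from blue (low) to red (high), with wild-type libraries left of the line. Zbtb16 runs from -2.00 to 2.03 and Tsc22d3 from -0.19 to 0.23, and Fkbp5 and Sgk1 are opposite in DdblGata1 replicate 4.

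Among 10104 other genes with a mean log2 CPM of at least 3, the profiles nearest to Cebpd were those of Rlf (root mean square difference of 0.11), Zfp445 (0.12) and Ncoa7 (0.13). Hjurp (0.10), Phka2 (0.10) and Cep295 (0.11) were nearest to Cebpb. Clta (0.04), Optn (0.05) and Gng5 (0.05) were nearest to Tsc22d3, a member whose own profile varied by only 0.13. Tubb2b (0.15), Adgrf5 (0.16) and Rcan2 (0.19) were nearest to Fkbp5. None of these 12 is a member or stands in a list of receptor-linked genes used here, and each match is over 6 libraries. The lists are not complete: they held Ncoa1, Ncoa2 and Ncoa3 but not Ncoa7.

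Transcript estimates showed where reads of Sgk1 were placed. The transcript Sgk1-202, which starts downstream of the response element printed above, had 6.60, 5.49 and 5.35 TPM in wild-type and 14.1, 6.95 and 8.02 TPM in DdblGata1 libraries. The 3 DdblGata1 values were the higher ones, but the choice of this transcript followed a look at its values, so no test is given. Sgk1-201, which starts further downstream, had 23.0, 14.5 and 13.0 TPM in wild-type libraries, 0 and 0.231 TPM in DdblGata1 replicates 4 and 9, and 35.7 TPM in DdblGata1 replicate 10.

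Sgk1-203, from an upstream start, showed the reverse, with 0.0688 TPM or less in wild-type libraries, 3.69 and 33.4 TPM in DdblGata1 replicates 4 and 9, and a value listed at 0 in DdblGata1 replicate 10. Sgk1-201 and Sgk1-203 share a run of 2292 bases and differ before it by 159 and 184 bases, and Sgk1-202 shares 2285 bases with each of them. Reads from the shared run do not tell the 3 apart, which also limits the values of Sgk1-202, whose highest estimate fell in the library where Sgk1-201 was listed at 0. A test of transcript usage with diffSpliceDGE gave Sgk1 an adjusted p of 1.0, and 0.0482 without DdblGata1 replicate 10. With all 6 libraries the test called 0.254% of all genes with 2 or more transcripts, and 0 of the 4 members it could test (Nr3c1, Tsc22d3, Fkbp5 and Sgk1). The share of all genes called without DdblGata1 replicate 10 is not given here.

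**Figure D4:**
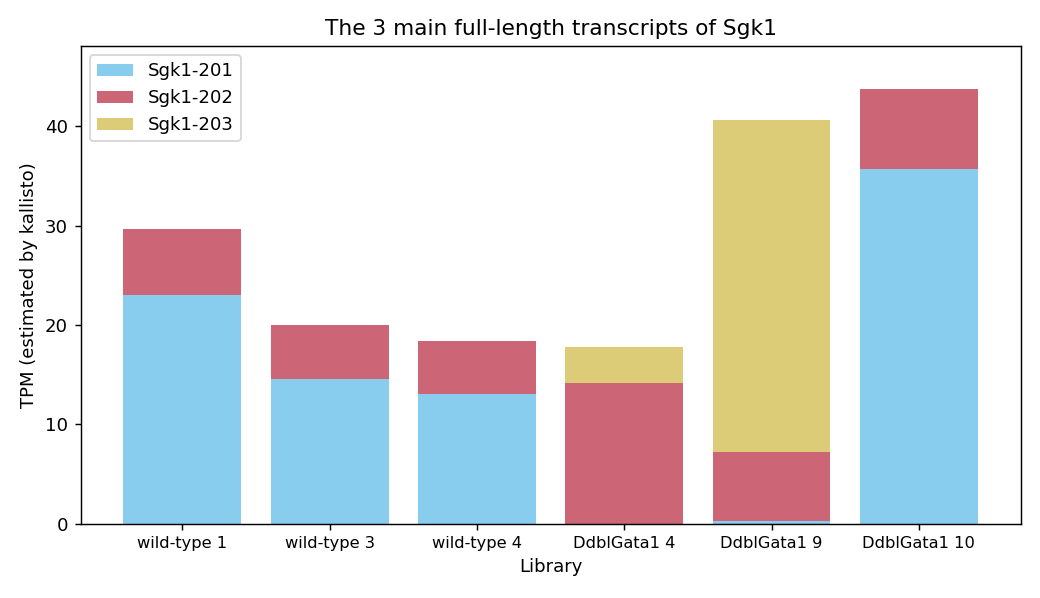
Stacked TPM of the 3 main full-length transcripts of Sgk1 in each library, as kallisto estimated them. Sgk1-201 makes up most of the bar in wild-type libraries and DdblGata1 replicate 10, and Sgk1-202 and Sgk1-203 do in DdblGata1 replicates 4 and 9.

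Nr3c1 and Tsc22d3 showed the same kind of spread between overlapping transcripts. Nr3c1-204 carried 45.7, 48.4 and 62.7 TPM in wild-type and 67.6, 60.4 and 71.4 TPM in DdblGata1 libraries. Nr3c1-203, which contains the whole of Nr3c1-204 and 107 bases before it, had 3.19 TPM in wild-type replicate 3, 13.3 and 18.5 TPM in DdblGata1 replicates 9 and 10, and was listed at 0 in the other 3. Tsc22d3-201, a coding transcript, was the main transcript in all 6 libraries with 28.8 to 58.3 TPM. The non-coding Tsc22d3-202 was estimated at 0.0356 TPM in wild-type replicate 1 and listed at 0 in DdblGata1 replicate 4, and lay between 14.2 and 24.6 TPM in the other 4.

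Genes that supply hormone to the receptor and assist it were taken from a list of 21, all measured. The median log2 fold change was 0.04, and 3 genes were higher at an unadjusted p under 0.05 by edgeR and 0 lower, beside 6.03% and 4.23% of all genes. DESeq2 called 1 higher, beside 0.971% of all genes. That 1 was Ncoa1, a coactivator of steroid receptors, with 59.2, 54.3 and 53.7 CPM in wild-type and 79.7, 86.5 and 106 CPM in DdblGata1 libraries (log2 fold change 0.70 ± 0.15, SE; DESeq2 adjusted p 0.0149, edgeR 0.384). Nrip1, a corepressor (0.59 ± 0.17, SE), and the acetyltransferase gene Ep300 (0.52 ± 0.18) were the other 2. The count of 3 was 2 without wild-type replicate 1 (4.34% of all genes) or without DdblGata1 replicate 9 (3.45%) or 10 (2.90%). Without DdblGata1 replicate 4, 5 genes were higher (9.61% of all genes) and 2 lower (1250 of all 15238 genes). Med1, a mediator subunit that meets nuclear receptors, had 0.36 ± 0.19.

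Hsd11b1 makes active hormone from its inactive form inside the cell, and Hsd11b2 does the reverse. Hsd11b1 had 13.4, 10.1 and 15.4 TPM in wild-type and 14.4, 6.28 and 8.72 TPM in DdblGata1 libraries, with overlapping groups. Hsd11b2 had 11.8 to 15.9 and 9.54 to 19.9 TPM. Nr3c2, the mineralocorticoid receptor, which also binds these hormones, had 0.786 to 3.0 TPM over all libraries, far below Nr3c1 on the same per-length scale. The log2 fold changes were -0.48 ± 0.34, 0.07 ± 0.26 and -0.68 ± 0.42 (SE) in that order of genes, with edgeR adjusted p-values of 0.609, 0.933 and 0.576.

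A further 24 genes known to be induced by glucocorticoid were all measured, and 20 of them had a higher value in DdblGata1 libraries. Their median log2 fold change was 0.49. At an unadjusted p under 0.05, edgeR found 6 higher and 0 lower, beside 6.03% and 4.23% of all genes. The count of 6 dropped to 4 when DdblGata1 replicate 10 was left out (2.90% of all genes) and reached 9 when DdblGata1 replicate 4 was (9.61%). Leaving out wild-type replicate 1 together with DdblGata1 replicate 10 gave 3 (3.15%). DESeq2 called 3 higher, Pik3r1, Nfkbia and Errfi1, beside 0.971% of all genes.

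Pik3r1, a regulatory subunit of PI3 kinase, had 87.1, 118 and 123 CPM in wild-type and 205, 156 and 189 CPM in DdblGata1 libraries (log2 fold change 0.75 ± 0.18, SE; DESeq2 adjusted p 0.0380). Nfkbia, the inhibitor of NF-kB that both glucocorticoid and NF-kB induce, had 51.2, 66.3 and 59.1 against 76.3, 154 and 121 CPM (0.99 ± 0.25; DESeq2 adjusted p 0.0303). In both genes no DdblGata1 value reached down to the wild-type ones. Cdkn1c, a cell cycle inhibitor, had 127, 220 and 149 against 304, 266 and 248 CPM (0.72 ± 0.22), and DESeq2 did not call it (adjusted p 0.115). Errfi1, a feedback inhibitor of the EGF receptor, had 39.4, 39.8 and 41.3 CPM in wild-type libraries and 41.5, 110 and 170 CPM in DdblGata1 libraries. Its DdblGata1 replicate 4 was level with wild-type, and the log2 fold change of 1.42 ± 0.42 (SE; DESeq2 adjusted p 0.0395) was 0.90 without DdblGata1 replicate 10. The other 2 genes at that threshold were Anxa1, which encodes the anti-inflammatory annexin A1, and the phosphatase gene Dusp1, both named after their values were seen, with 0.77 ± 0.24 and 0.48 ± 0.17.

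**Figure D5:**
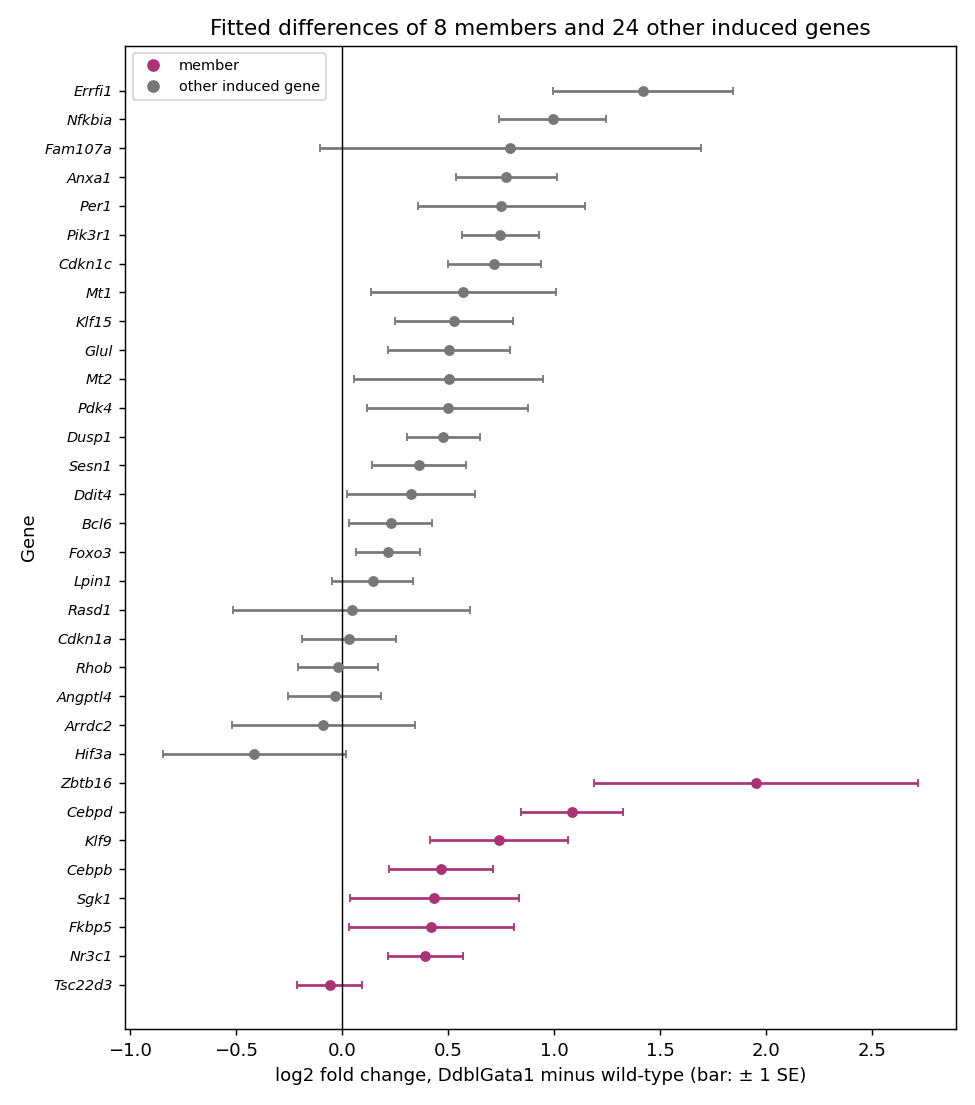
Fitted log2 fold change, DdblGata1 minus wild-type, of the 8 members (purple) and the 24 other induced genes (grey), with bars of 1 SE either side. Values run from -0.41 for Hif3a to 1.95 for Zbtb16, and Tsc22d3 sits at -0.06.

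Inflammatory genes that the receptor is known to restrain were also mostly higher in value. Of 21 listed, 15 were in the gene table and 13 of these had a higher value, the median difference being 0.67 on the log2 scale. By edgeR 9 were higher and 1 lower at an unadjusted p under 0.05, where 6.03% and 4.23% of all genes were. DESeq2 called 5 higher, Cxcl10, Cxcl1, Ccl2, Lif and Il6, against 0.971% of all genes. Lif, a cytokine of the IL-6 family, had 4.42, 5.69 and 3.96 CPM in wild-type and 8.51, 10.4 and 10.3 CPM in DdblGata1 libraries (log2 fold change 1.06 ± 0.25, SE; DESeq2 adjusted p 0.0157). Il6 had 7.17, 7.52 and 6.58 CPM in wild-type libraries, 9.13 CPM in DdblGata1 replicate 4, and 38.8 and 36.5 CPM in replicates 9 and 10 (1.99 ± 0.48; DESeq2 adjusted p 0.00459). The chemokine genes Cxcl1 (1.68 ± 0.39) and Ccl2 (1.76 ± 0.40) were likewise higher in replicates 9 and 10 than in replicate 4, and Cxcl10 had 4.36 to 5.04 against 10.0 to 17.4 CPM (1.43 ± 0.28). Within the DdblGata1 group Cebpd was also lowest in replicate 4. It was highest in replicate 10, whereas Il6, Cxcl1 and Ccl2 were highest in replicate 9, and a link was not tested. The gene on the lower side was Il1b, named after its value was seen, at 3.57, 2.10 and 0.262 CPM in wild-type and 0.110, 0.397 and 0.452 CPM in DdblGata1 libraries, with overlapping groups and few counts. The count of 9 was 5 without DdblGata1 replicate 9 (3.45% of all genes), 6 without wild-type replicate 1 (4.34%), and also 6 without that library and DdblGata1 replicate 10 (3.15%).

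Receptors and mediators of the same cytokine family, which induce Cebpb and Cebpd, were measured for 9 of 9 genes. By edgeR 3 were higher at an unadjusted p under 0.05, Socs3, Pim1 and Lifr, and 0 lower, beside 6.03% and 4.23% of all genes. Socs3, their feedback inhibitor, had 178, 212 and 224 CPM in wild-type and 370, 332 and 299 CPM in DdblGata1 libraries (log2 fold change 0.70 ± 0.16, SE; DESeq2 adjusted p 0.0145). DdblGata1 replicate 4, the lowest of its group for Cebpd, was the highest for Socs3. The receptor genes Lifr and Osmr had log2 fold changes of 0.81 ± 0.31 and 0.28 ± 0.20 (SE), and the kinase Pim1 had 0.53 ± 0.20. Lifr was 0.50 without wild-type replicate 1 and 0.28 without that library and DdblGata1 replicate 10, and Osmr was 0.18 without DdblGata1 replicate 10. The count of 3 was 1 without wild-type replicate 1 (4.34% of all genes) or without DdblGata1 replicate 10 (2.90%).

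Several measures differed between the genotypes along with the members, and their part in the results was not tested. Immediate early genes, which tissue dissociation also induces, summed to 7261 to 7556 CPM in wild-type and 9652 to 11803 CPM in DdblGata1 libraries over 25 of 26 listed genes. At an unadjusted p under 0.05 edgeR found 15 of them higher (6.03% of all genes), 2 without DdblGata1 replicate 9 (3.45%), 7 without wild-type replicate 4 (4.70%), and 8 to 16 with any of the others left out (2.90% to 9.61%). Zfp36 (log2 fold change 0.97 ± 0.20, SE), Klf6 (0.65 ± 0.15), Egr1 (0.57 ± 0.17) and Ier2 (0.50 ± 0.15) had the smallest p-values. DESeq2 called the first 3 higher, beside 0.971% of all genes. Smooth muscle markers summed to 6835 to 11140 CPM in wild-type and 4708 to 7326 CPM in DdblGata1 libraries. Endothelial markers summed to 57.3 to 79.2 CPM in wild-type and 109 to 168 CPM in DdblGata1 libraries, without overlap. Of these 6 markers, 3 were higher and 3 lower in value (median -0.01 on the log2 scale). Their mean log2 CPM overlapped (2.18 to 2.72 in wild-type and 2.35 to 2.86 in DdblGata1 libraries). Tek, a receptor of angiopoietins, was the marker that differed, with 28.8, 56.6 and 49.4 against 81.6, 89.2 and 151 CPM (1.26 ± 0.31; DESeq2 adjusted p 0.0176). Thy1, a fibroblast marker, had 44.2, 60.7 and 57.8 CPM in wild-type and 179, 102 and 99.0 CPM in DdblGata1 libraries (1.22 ± 0.26; DESeq2 adjusted p 0.00449), without overlap. DESeq2 also called Des, the desmin gene of muscle, lower (-0.77 ± 0.21; adjusted p 0.0303), and these 3 markers were named after their values were seen. Leukocyte markers summed to 19.1 to 42.4 and 22.1 to 28.0 CPM, with 6 of 8 in the gene table, and their highest sum was in wild-type replicate 1. In bulk RNA, a change in the number of cells of a type and a change in RNA per cell cannot be told apart.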

How the data were processed

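RNA of sorted intestinal fibroblasts was measured in 6 libraries, grouped by the genotype in the labels. A strand-specific kit was used on 100 ng of RNA, per the labels' protocols. Per the submitters' processing notes, the tools were kallisto, DESeq2, bcl2fastq 2.2 and R 4.2.2, and the builds GRCm38.p6 and mm10. Their roles and order were not given in the sources used here. Whole-number estimated counts (expected counts) fill the gene table deposited by the authors. Every gene in it reaches 10 counts in 3 or more libraries, and genes below that entered no test. Of its values, 99.7% equalled summed TPM scaled by mean transcript length and library total, within 1% plus 1 count, so the table was read as length-scaled. The transcript files deposited by the authors hold estimated counts, TPM and other values, namely lengths in bases, for 115270 transcripts, assigned with GENCODE M21. A sample sheet by the authors adds, for each library, a size factor (a ratio) and 2 surrogate variables (a score), made by an unstated method.

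Genes were compared across the whole table by the robust quasi-likelihood test of edgeR 4.0.16 under R 4.3.3 (filterByExpr, TMM scaling, Benjamini-Hochberg adjustment at 0.05). The SE is the fitted log2 fold change divided by the root of its F statistic. Transcript usage was tested with diffSpliceDGE on 33123 transcripts of 9446 genes. DESeq2 1.42.0, limma 3.58.1, other scalings, filters and units, the surrogate variables and leaving out libraries were alternatives. The edgeR test was checked on simulated counts with 50 genes at each fold. It called 0 of them at 1.5-fold, 14 at 2-fold, 36 at 4-fold and 46 at 8-fold, and 10 of 15038 unchanged genes. A member that was not called may thus still differ by such small folds. The members and lists were chosen with earlier results of these data known. Named genes were all members, the 4 genes of smallest p and any that DESeq2 called in each list other than the cell type markers, 3 genes of receptor and hormone supply, and the 3 nearest profiles for 4 members. A result that this rule would name is not reported here.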

Additional observations from a re-analysis of the deposited data

How the results depend on the processing

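No paired analysis was possible because the labels name no pairs. Both genotypes have a replicate number 4, but the labels do not say that it marks a pair. DESeq2 called 214 genes where edgeR called 0 (1564 at an unadjusted p under 0.05), and edgeR called 0 to 1 with single libraries left out. DESeq2 was the alternative that carried Cebpd past the threshold (1.08, adjusted p 0.0119), and edgeR's adjusted p for it ranged from 0.0980 with the surrogate variables to 0.899 without DdblGata1 replicate 10. The number of members at an unadjusted p under 0.05 was 4 with library totals alone, where 6.50% of all genes were higher. It was also 4 with limma on log2(TPM + 1) (8.22% of all genes) or log2(TPM + 0.1) (8.27%). With single libraries left out it was 1 to 5 (2.90% to 9.61%). Without wild-type replicate 1 and DdblGata1 replicate 10, chosen after the data were seen, it was 1 (3.15%). Tsc22d3 turned to 0.0271 and 0.0275 with log2(TPM + 1) and log2(TPM + 0.1), to 0.0152 with the surrogate variables to 0.0286 without wild-type replicate 1 and to 0.0031 without DdblGata1 replicate 9, and ran from -0.11 to 0.03 with single libraries left out. Hsd11b2 ran from -0.16 to 0.28 in the same way. Transcript usage of Sgk1 ran from 0.0482 to 1.0 in adjusted p, and for Nr3c1 and Fkbp5 the stricter share filter left too few transcripts for a test. With the surrogate variables Klf9 was 0.33, Sgk1 0.08, Errfi1 0.73 and Il6 1.29. Zbtb16 had an edgeR unadjusted p of 0.0739 in that fit, and of 0.0689 with unscaled sums of transcript counts. The 7 members other than Tsc22d3 kept the sign of their difference in all alternatives run. With 3 libraries a group, depth limits little here, except for Zbtb16, with 69.2 estimated counts in its lowest library.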

Other observations

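Genes of the fat cell programme that C/EBP factors open were measured for 7 of 8 listed genes, and Adipoq, the adipocyte hormone, had at most 1 estimated count in any library. Lpl, the lipoprotein lipase, had 378, 1021 and 678 CPM in wild-type replicates 1, 3 and 4, and 1527, 1773 and 2410 CPM in DdblGata1 replicates 4, 9 and 10 (log2 fold change 1.46 ± 0.36, SE; DESeq2 adjusted p 0.00643, edgeR 0.384). Fabp4, a fatty acid carrier, had 1.60 to 4.83 and 4.99 to 6.42 CPM (1.06 ± 0.44). Dlk1, which holds back fat cell formation, and Zfp423, a factor of preadipocytes, had log2 fold changes of 0.61 ± 0.30 and 0.34 ± 0.18. Without wild-type replicate 1 Dlk1 was 0.32, and it was 0.38 without DdblGata1 replicate 9. Zfp423 was 0.19 without DdblGata1 replicate 10, and Fabp4 was 1.71 without wild-type replicate 3. Cebpa, the C/EBP gene that follows Cebpb and Cebpd in this programme, overlapped between the groups, with 9.78 to 18.6 and 11.1 to 13.0 CPM.

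Among relatives of the members, Pgr, the progesterone receptor, had 4.35 to 5.10 CPM in wild-type and 2.85 to 3.68 CPM in DdblGata1 libraries (log2 fold change -0.59 ± 0.27, SE; edgeR adjusted p 0.502). Its protein binds the same palindrome in DNA as the glucocorticoid receptor. Tsc22d4 had a log2 fold change of -0.57 ± 0.25 and Klf13 of 0.34 ± 0.22, and they were -0.37 without DdblGata1 replicate 10 and 0.11 without DdblGata1 replicate 4 respectively.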
